A study of Mus musculus with 15 samples.

Results

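Kidney levels of 9 genes of the circadian clock were compared between mice with and without Grhl1, a grainyhead-like transcription factor of epithelia. The genes were Arntl (also called Bmal1), Clock, Npas2, Cry1, Cry2, Nfil3, Nr1d1, Nr1d2 and Bhlhe41. They were taken as the probe sets annotated to each gene alone, which gave 1 probe set for each of the 9, out of 23521 probe sets and 22180 genes tested. A further probe set that the annotation pairs with Cry2 and D930015M05Rik together was not used. The 15 mice were 8 Grhl1-/- animals (replicates 8 to 15, KO below) and 7 Grhl1+/+ animals (replicates 1 to 7, WT below), all aged about 6 months, with 1 expression array of whole kidney total RNA each. The sources used here do not give the strain, the sex, the deleted part of Grhl1 or the time of day at which the kidneys were taken. Values are the authors' log2 RMA (robust multi-array average) summaries, differences are KO minus WT, and tests are two-sided.

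The mammalian clock is a feedback loop. The proteins ARNTL and CLOCK, or NPAS2 in place of CLOCK, bind E-boxes and drive the cryptochrome, period, Nr1d, Bhlhe41 and PAR-bZIP genes. The period and cryptochrome proteins then inhibit ARNTL and CLOCK, and the NR1D proteins repress Arntl, Npas2, Nfil3 and Cry1 through ROR elements, so that transcripts of the Arntl side peak at about the opposite time of day to those of Nr1d1. In the kidney this loop is known to time sodium and water handling.

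The promoter windows of 4 members are shown because they hold the letters of elements through which the loop is known to act. They are those of Arntl itself and of Nfil3, Cry1 and Nr1d1, the members with the smallest limma p-values. Npas2 and Nr1d2, which moved with and against Arntl, had no match in their windows and are not shown. Each window is the RefSeq sequence of build GRCm38.p6, from 250 bases before to 50 bases after an annotated start, 5′ to 3′ along the gene, with motif matches in capitals. Arntl on the plus strand (chr7:113207261-113207560) and Nfil3 on the minus strand (chr13:52980990-52981289) hold a ROR element core. Cry1 on the minus strand (chr10:85185005-85185304) holds an E-box and an E-box variant, and Nr1d1 on the minus strand (chr11:98775328-98775627) holds an E-box variant.
Arntl: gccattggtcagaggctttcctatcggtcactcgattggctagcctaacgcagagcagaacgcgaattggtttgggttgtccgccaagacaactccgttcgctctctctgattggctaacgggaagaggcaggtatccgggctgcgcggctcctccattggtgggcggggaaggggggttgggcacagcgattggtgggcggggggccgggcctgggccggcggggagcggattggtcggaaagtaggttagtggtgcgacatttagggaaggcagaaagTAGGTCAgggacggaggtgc
Nfil3: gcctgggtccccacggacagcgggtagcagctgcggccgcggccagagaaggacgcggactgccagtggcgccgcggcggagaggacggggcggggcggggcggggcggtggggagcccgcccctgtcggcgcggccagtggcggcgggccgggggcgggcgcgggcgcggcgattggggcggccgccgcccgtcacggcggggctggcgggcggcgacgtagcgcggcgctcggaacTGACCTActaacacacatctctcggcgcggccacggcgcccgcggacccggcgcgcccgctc
Cry1: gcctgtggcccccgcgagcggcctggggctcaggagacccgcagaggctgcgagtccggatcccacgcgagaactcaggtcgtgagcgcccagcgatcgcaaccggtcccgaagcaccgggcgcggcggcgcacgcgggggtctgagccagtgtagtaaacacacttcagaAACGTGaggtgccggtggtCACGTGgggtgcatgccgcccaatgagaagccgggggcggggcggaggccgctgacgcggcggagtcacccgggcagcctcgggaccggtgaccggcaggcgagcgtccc
Nr1d1: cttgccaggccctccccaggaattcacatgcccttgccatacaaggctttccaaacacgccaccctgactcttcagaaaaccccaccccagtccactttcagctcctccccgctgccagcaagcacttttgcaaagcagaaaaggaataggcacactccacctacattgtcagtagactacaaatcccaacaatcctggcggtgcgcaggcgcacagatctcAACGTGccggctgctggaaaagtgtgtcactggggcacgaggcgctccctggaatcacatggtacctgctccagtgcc

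Motifs were searched on both strands, and no match overlapped another. The ROR element core, searched as TAGGTCA or TGGGTCA, was found at positions 281 to 287 of the Arntl window and, on the other strand, at 239 to 245 of the Nfil3 window, counted from the 5′ end. It occurred in 2 of the 12 windows of the members and in 6.45% of all 32851 promoter windows. The E-box CACGTG was found in the Cry1 window at 191 to 196 and in the Bhlhe41 window, against 7.15% of all windows. The variant CACGTT was found in the windows of Cry1, Cry2 and Nr1d1, against 4.68% of all windows. The D-box, searched as TTATGTAA or TTACGTAA, was in 0 of the 12 windows and in 1.06% of all. These matches describe letters in a short window and no more.

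None of the 9 genes reached a Benjamini-Hochberg adjusted p under 0.05 when limma was run on all probe sets, where 0.0128% of probe sets passed, and the smallest adjusted p among the members was 0.714. At an unadjusted p under 0.05 stood 3 of the 9, Nr1d1 with a positive difference and Cry1 and Nfil3 with negative ones, where 5.55% of all probe sets reached that level (3.49% with positive and 2.06% with negative differences). The exact permutation test of each gene over the 6435 ways to divide 15 mice into 8 and 7 also gave 3 below 0.05. The exact rank-sum test gave 2, beside 4.9% of all probe sets. The members were chosen with earlier results of these data known, and several moved together from kidney to kidney. The 3 of 9 is therefore a count and not a test of the list. The differences were negative for 7 members and positive for 2, with a median of -0.06, beside a median of 0.01 over all probe sets, of which 45.4% were negative. The groups overlapped in all 9 genes, and they did not overlap in 0.123% of all probe sets. In whole kidney RNA, fewer cells of a type and less RNA per cell cannot be told apart.

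Transcripts of neighbouring organs were high in some kidneys of both genotypes. The adrenal cortex list (7 of 8 genes measured) had a mean level of 4.57 to 9.07 in KO and 4.50 to 8.20 in WT kidneys. It was high, at 7.04 or more, in KO 10 to 13 and in WT 2 and 3, and at 4.87 or less in the other 9 samples. The liver list (10 of 10 genes) ranged from 7.61 to 9.60 in KO and from 7.82 to 11.1 in WT kidneys, and was high in KO 10, WT 3 and WT 7. Both organs have clocks of their own. The members are given below with and without such samples, and with the adrenal mean as a covariate. Y-linked genes (3 of 4 measured) were high in KO 8 to 12 and WT 1 to 5 and low in the other 5 samples. The kidney list (11 of 12 genes) lay between 11.4 and 11.8 in all samples, so the tissue label held. Grhl1 itself averaged 4.70 ± 0.16 in KO and 5.09 ± 0.10 in WT kidneys (SD, n = 8 and 7). The difference was -0.38 (limma unadjusted p = 5.3e-05 and adjusted p = 0.113, exact permutation p = 0.00031). All 8 KO kidneys lay below every WT kidney for Grhl1, and the groups did not overlap in 0.123% of all probe sets.

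On the activating side, Arntl, the obligate partner of CLOCK, read 7.35 at the lowest, 8.13 at the median and 8.76 at the highest in KO kidneys, against 7.67, 8.44 and 9.03 in WT kidneys. The KO mean was 8.06 ± 0.44 and the WT mean 8.43 ± 0.47 (SD), a difference of -0.37 (SE 0.21, 95% interval -0.83 to 0.08, limma adjusted p = 0.953, exact permutation p = 0.135). The lowest values belonged to KO 12, KO 11 and WT 5 and the highest to WT 3, WT 7 and KO 14, so both genotypes held kidneys at each end. The difference was -0.87 among the 6 samples with adrenal transcripts and -0.03 without them, and it was -0.20 without the 3 with liver transcripts. With all 15 samples kept and the adrenal cortex mean as a covariate, a fit added after seeing the data, it was -0.35 (limma adjusted p = 0.937). That fit uses a common slope for both genotypes. Arntl was lower with adrenal transcripts than without in KO (7.81 against 8.30) and higher in WT (8.69 against 8.33). A common slope therefore cannot show a difference that depends on adrenal transcripts.

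Clock, whose protein pairs with ARNTL, varied least of the 9 members, from 10.51 through a median of 10.55 to 10.67 in KO kidneys, against 10.54, 10.57 and 10.71 in WT kidneys. The difference was -0.03 (SE 0.04, 95% interval -0.11 to 0.05, limma adjusted p = 0.997). Npas2, the paralogue that can take the place of CLOCK, read 8.27, 8.69 and 9.31 at the lowest, median and highest KO kidney, against 8.45, 8.71 and 9.23 in WT kidneys. The difference was -0.06 (SE 0.15, 95% interval -0.38 to 0.25, limma adjusted p = 0.997), and it turned positive without KO 12 (0.0024), without WT 3 (0.004) and without the samples with adrenal transcripts (0.13). The KO range of Npas2 enclosed the whole WT range.

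**Figure D1:**
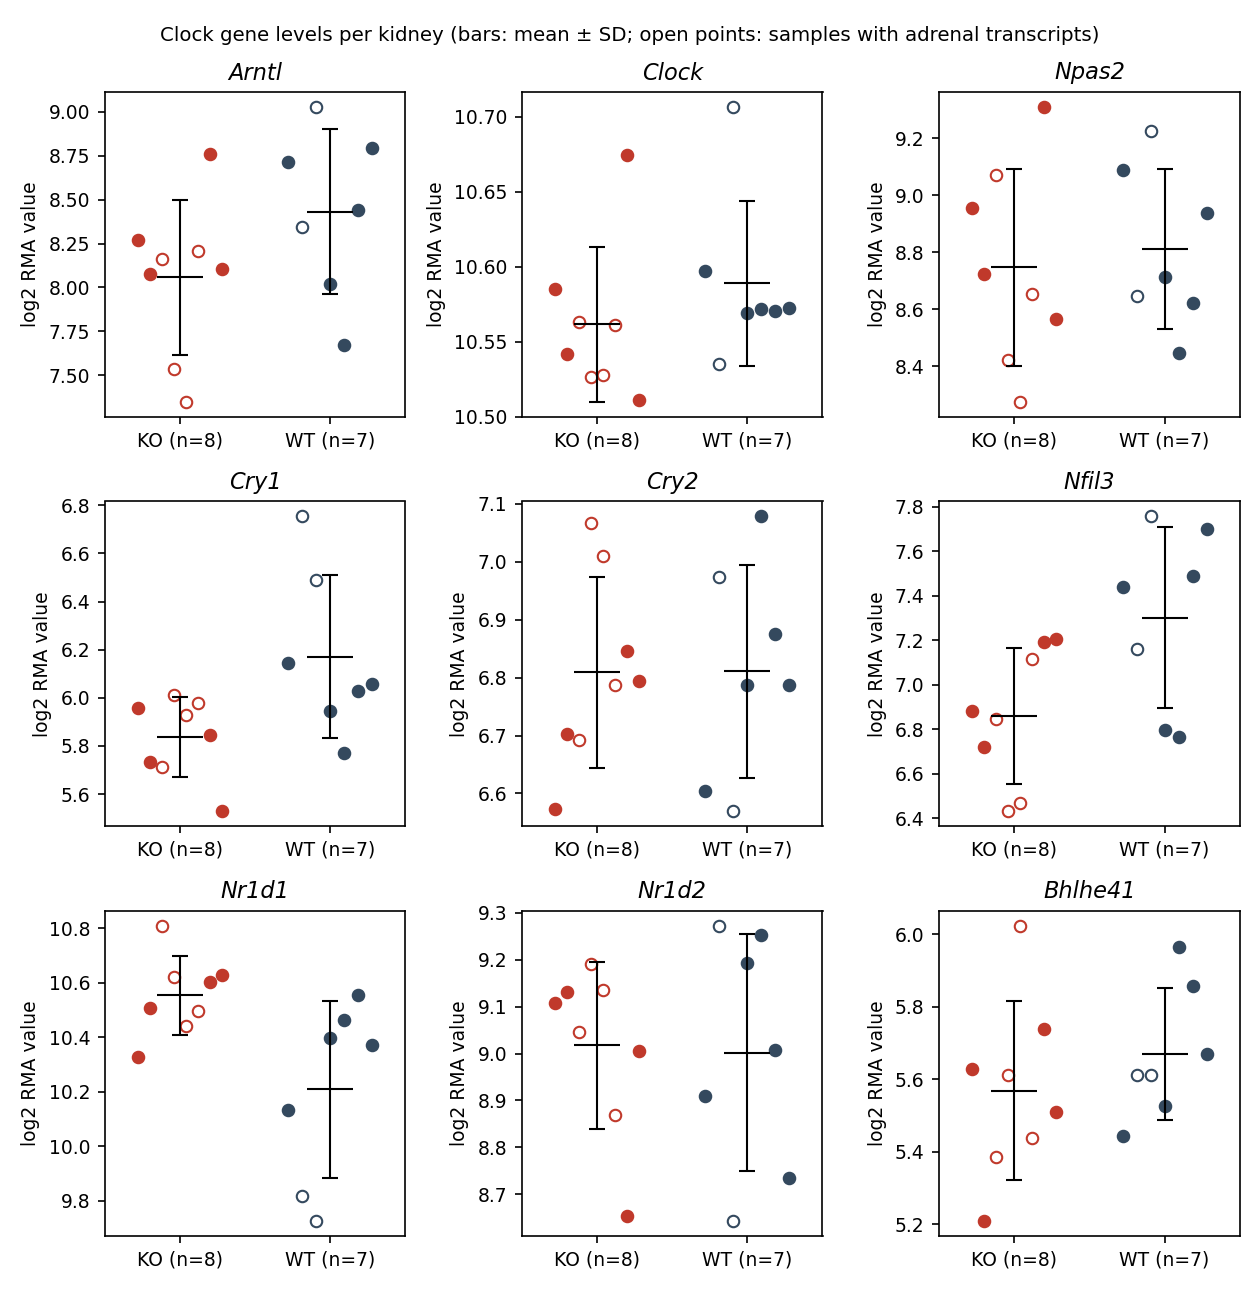
Log2 RMA value of each of the 9 clock genes in every kidney, KO (n = 8) left and WT (n = 7) right, with mean and SD as bars and open points for samples with adrenal transcripts; each panel has its own vertical scale. The groups overlap in every panel, and the lowest Nr1d1 and highest Cry1 values among WT kidneys are those of WT 2 and WT 3. Of the WT kidneys without adrenal transcripts, WT 1 (10.13) also lies below every KO kidney for Nr1d1 (lowest 10.33). For Cry1, WT 1 (6.14), WT 6 (6.03) and WT 7 (6.06) also lie above every KO kidney (highest 6.01).

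Among the repressors of ARNTL and CLOCK, Cry1 read 5.53, 5.89 and 6.01 at the lowest, median and highest KO kidney, against 5.77, 6.06 and 6.75 in WT kidneys. All 8 KO kidneys lay below the WT median, and 5 of 7 WT kidneys lay above every KO kidney. The means were 5.84 ± 0.17 in KO and 6.17 ± 0.34 in WT (SD), a difference of -0.33 (SE 0.13, 95% interval -0.60 to -0.07, limma adjusted p = 0.761, exact permutation p = 0.0179). The 2 highest readings, 6.75 in WT 2 and 6.49 in WT 3, came from the WT samples with adrenal transcripts, whereas the 4 KO samples with such transcripts averaged 5.91. The difference was -0.72 among these 6 samples and -0.22 among the other 9. The paralogue Cry2 showed no such separation, with 6.57, 6.79 and 7.07 at the lowest, median and highest KO kidney, against 6.57, 6.79 and 7.08 in WT kidneys. Its difference was -0.0015 (95% interval -0.18 to 0.18, limma adjusted p = 0.999), and its sign turned when any of 8 single samples was left out.

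Nfil3, which encodes the E4BP4 repressor that competes with the PAR-bZIP activators at D-boxes, read 6.43, 6.86 and 7.21 at the lowest, median and highest KO kidney, against 6.77, 7.44 and 7.76 in WT kidneys. All 8 KO kidneys lay below the WT median, and 4 of 7 WT kidneys lay above every KO kidney. The means were 6.86 ± 0.31 in KO and 7.30 ± 0.40 in WT (SD), a difference of -0.44 or 1.36-fold (SE 0.17, 95% interval -0.80 to -0.09, limma adjusted p = 0.766, exact permutation p = 0.0345). It was the member with the widest gap between the means in log2 units. Among the samples with adrenal transcripts the difference was -0.74, without them it was -0.24, and without those with liver transcripts it was -0.27. With the adrenal covariate, at a common slope for both genotypes, it was -0.44 for Nfil3 and -0.41 for Cry1 (limma adjusted p = 0.803 and 0.409).

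Nr1d1 encodes REV-ERBα, the haem-binding receptor that represses Arntl. It read 10.33, 10.56 and 10.81 at the lowest, median and highest KO kidney, against 9.73, 10.37 and 10.55 in WT kidneys. In 7 of 8 KO kidneys it was above the WT median, and 3 of 7 WT kidneys lay below every KO kidney. The means were 10.55 ± 0.15 in KO and 10.21 ± 0.33 in WT (SD), a difference of 0.35 or 1.27-fold (SE 0.12, 95% interval 0.10 to 0.60, limma adjusted p = 0.714, exact permutation p = 0.0109). The lowest readings were again WT 3 at 9.73 and WT 2 at 9.82. The difference was 0.82 among the 6 samples with adrenal transcripts and 0.13 among the other 9, and it was 0.40 with the adrenal covariate (limma adjusted p = 0.543). In a test of that contrast added after these values were seen, the interaction of genotype with adrenal transcripts had an unadjusted p of 0.000669 for Nr1d1 and 0.0103 for Cry1, with adjusted p = 0.99999 for both in limma, and 4.43% of all probe sets had an unadjusted p under 0.05 there. For Arntl and Nfil3 the unadjusted limma p of that interaction was 0.064 and 0.175. No probe set passed that interaction after adjustment.

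Nr1d2, the paralogue REV-ERBβ, read 8.65, 9.08 and 9.19 at the lowest, median and highest KO kidney, against 8.64, 9.01 and 9.27 in WT kidneys. Its difference was 0.02 (SE 0.10, 95% interval -0.21 to 0.24, limma adjusted p = 0.998), and it was negative without WT 3 (-0.044), without WT 7 (-0.029), without KO 9 (-0.0006), without KO 11 (-0.0091), without KO 12 (-0.001) and without the samples with adrenal transcripts (-0.045). Across the 15 kidneys Nr1d1 and Nr1d2 did not move together (Pearson r = 0.14, permutation p = 0.618; Spearman rho = 0.0036, permutation p = 0.995; r = 0.05 without the 2 samples farthest from the median of Nr1d1). Within KO kidneys r was -0.17 (exact permutation p = 0.663) and within WT kidneys 0.27 (exact permutation p = 0.539). Bhlhe41, the E-box repressor DEC2, read 5.21, 5.56 and 6.02 at the lowest, median and highest KO kidney, against 5.44, 5.61 and 5.96 in WT kidneys, a difference of -0.10 (SE 0.11, 95% interval -0.33 to 0.12, limma adjusted p = 0.989).

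The genotype difference was also tested for a dependence on Y-linked transcripts. In limma 0 members had an unadjusted p under 0.05 for that interaction, against 7.04% of all probe sets, and 0% of probe sets passed after adjustment. The smallest adjusted p among the members was 0.824, for Nr1d1. Within the 10 samples with Y-linked transcripts the differences were -0.48 for Arntl, -0.35 for Cry1, -0.51 for Nfil3 and 0.43 for Nr1d1. Within the 5 samples without them they were -0.26, -0.26, -0.42 and 0.12 in the same order.

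**Figure D2:**
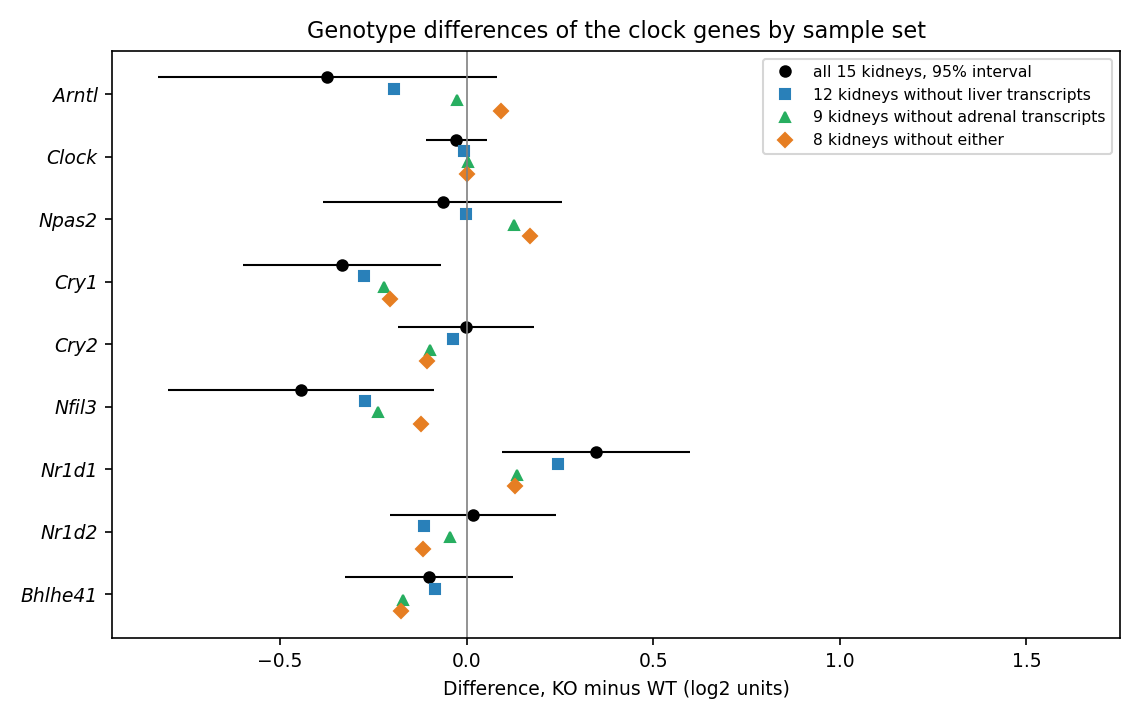
Difference KO minus WT of each clock gene in log2 units, for all 15 kidneys with the 95% interval of the limma fit and for 3 smaller sets of kidneys. In the set of 8 kidneys without adrenal or liver transcripts Arntl lies at 0.09, Nfil3 at -0.12 and Nr1d1 at 0.13.

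Most of the variation in these genes lay between animals of one genotype. The SD of Arntl within the genotypes was 0.45 log2 units, wider than that of 97.7% of all probe sets, whose median was 0.15. Nfil3 (0.35) exceeded 95.6% of probe sets, Npas2 (0.32) exceeded 93.7% and Cry1 (0.26) exceeded 88.2%. Nr1d1 (0.25), Bhlhe41 (0.22), Nr1d2 (0.22) and Cry2 (0.17) were wider than 85.9%, 79.3%, 78.1% and 61.3%. Clock stood apart, with an SD of 0.05 that only 2.25% of probe sets undercut.

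From kidney to kidney Npas2, Nfil3 and Clock moved with Arntl and Nr1d2 and Cry2 against it, while Cry1, Nr1d1 and Bhlhe41 showed no relation that passed over the 15 kidneys. Each of the other 8 members was set against Arntl over the 15 kidneys, with p-values adjusted over these 8 relations, and 5 passed 0.05 for Pearson's r. Nfil3 followed Arntl most closely (r = 0.91, permutation adjusted p = 0.000080; rho = 0.91, adjusted p = 0.00032). Npas2 did so with r = 0.85 (permutation adjusted p = 0.00032; rho = 0.75, adjusted p = 0.0069). Nr1d2 ran against Arntl (r = -0.78, permutation adjusted p = 0.0017; rho = -0.74, adjusted p = 0.0069). Clock moved with Arntl over a narrow range (r = 0.72, permutation adjusted p = 0.0046; rho = 0.72, adjusted p = 0.0070). Cry2 ran the opposite way (r = -0.66, permutation adjusted p = 0.013; rho = -0.52, adjusted p = 0.066). The remaining 3 relations did not pass, with r = 0.40 for Cry1 (permutation p = 0.136), -0.46 for Nr1d1 (permutation p = 0.0825) and -0.26 for Bhlhe41 (permutation p = 0.353).

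Npas2, Nfil3 and Nr1d2 also passed within each genotype by Pearson's r. In the 8 KO kidneys r with Arntl was 0.90 for Npas2, 0.84 for Nfil3 and -0.79 for Nr1d2 (exact permutation adjusted p = 0.016, 0.031 and 0.045). In the 7 WT kidneys it was 0.89, 0.95 and -0.89 (exact permutation adjusted p = 0.023, 0.0048 and 0.023). Spearman's rho was 0.83, 0.71 and -0.81 in KO kidneys (exact permutation adjusted p = 0.058, 0.115 and 0.058) and 0.82, 0.96 and -0.89 in WT kidneys (exact permutation adjusted p = 0.079, 0.022 and 0.049), so by rank the threshold was met in WT alone, for Nfil3 and Nr1d2. Without WT 3 and KO 12, the 2 samples farthest from the median of Arntl, r was 0.76 for Npas2, 0.86 for Nfil3 and -0.76 for Nr1d2, and these 3 passed (permutation adjusted p = 0.0071, 0.0011 and 0.0071), while Clock (r = 0.59, adjusted p = 0.065) and Cry2 (r = -0.51, adjusted p = 0.126) did not. By rank only Nfil3 passed there (rho = 0.86, permutation adjusted p = 0.0031). Npas2 had rho = 0.63 and Nr1d2 -0.68 (permutation adjusted p = 0.068 and 0.056). The unadjusted permutation p of Clock for Pearson's r was 0.033 without those 2 samples. Leaving out the extremes of Arntl narrows its range and lowers the number of samples. A missed threshold there therefore does not show that the relations of Clock and Cry2 depended on those samples. Cry2 did not pass within KO (r = -0.63, exact permutation adjusted p = 0.14) or WT kidneys (r = -0.805, exact permutation adjusted p = 0.063). Nor did it pass without adrenal transcripts (r = -0.41, permutation adjusted p = 0.363) or with them (r = -0.82, exact permutation adjusted p = 0.092). Without liver transcripts Cry2 had r = -0.62 (permutation adjusted p = 0.052). By Pearson's r Clock passed within KO kidneys (r = 0.78, exact permutation adjusted p = 0.045) and among the kidneys without liver transcripts (r = 0.66, permutation adjusted p = 0.044), and not within WT kidneys (r = 0.60, exact permutation adjusted p = 0.249). By rank Clock passed in none of these sets (permutation adjusted p of Spearman's rho = 0.058, 0.091 and 0.141). Among the 9 kidneys without adrenal transcripts r was 0.82 for Npas2, 0.80 for Nfil3 and -0.91 for Nr1d2 (permutation adjusted p = 0.031, 0.036 and 0.0027). By rank only Nr1d2 passed there (rho = -0.93, permutation adjusted p = 0.0054, against 0.115 for Npas2 and 0.055 for Nfil3). Among the 6 with adrenal transcripts r was 0.87, 0.98 and -0.69 (exact permutation adjusted p = 0.081, 0.033 and 0.204), and none passed by rank. The 12 kidneys without liver transcripts gave r of 0.87, 0.87 and -0.65, and the 10 with Y-linked transcripts 0.91, 0.95 and -0.74. By rank Nr1d2 passed in neither set (rho = -0.59 and -0.54, permutation adjusted p = 0.097 and 0.130). Nr1d1 had r = 0.12 with Arntl in KO and -0.53 in WT kidneys (exact permutation p = 0.792 and 0.218). Among the 10 kidneys with Y-linked transcripts it had r = -0.69 and passed (permutation adjusted p = 0.036), as did Clock and Cry2 there (r = 0.78 and -0.79, permutation adjusted p = 0.0092 and 0.013). By rank Cry2 passed there (rho = -0.81, permutation adjusted p = 0.019), and Nr1d1 and Clock did not (permutation adjusted p = 0.057 each). Nr1d1 passed in no other set of kidneys. Cry1 had r = -0.26 in KO and 0.51 in WT kidneys (exact permutation p = 0.539 and 0.238).

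**Figure D3:**
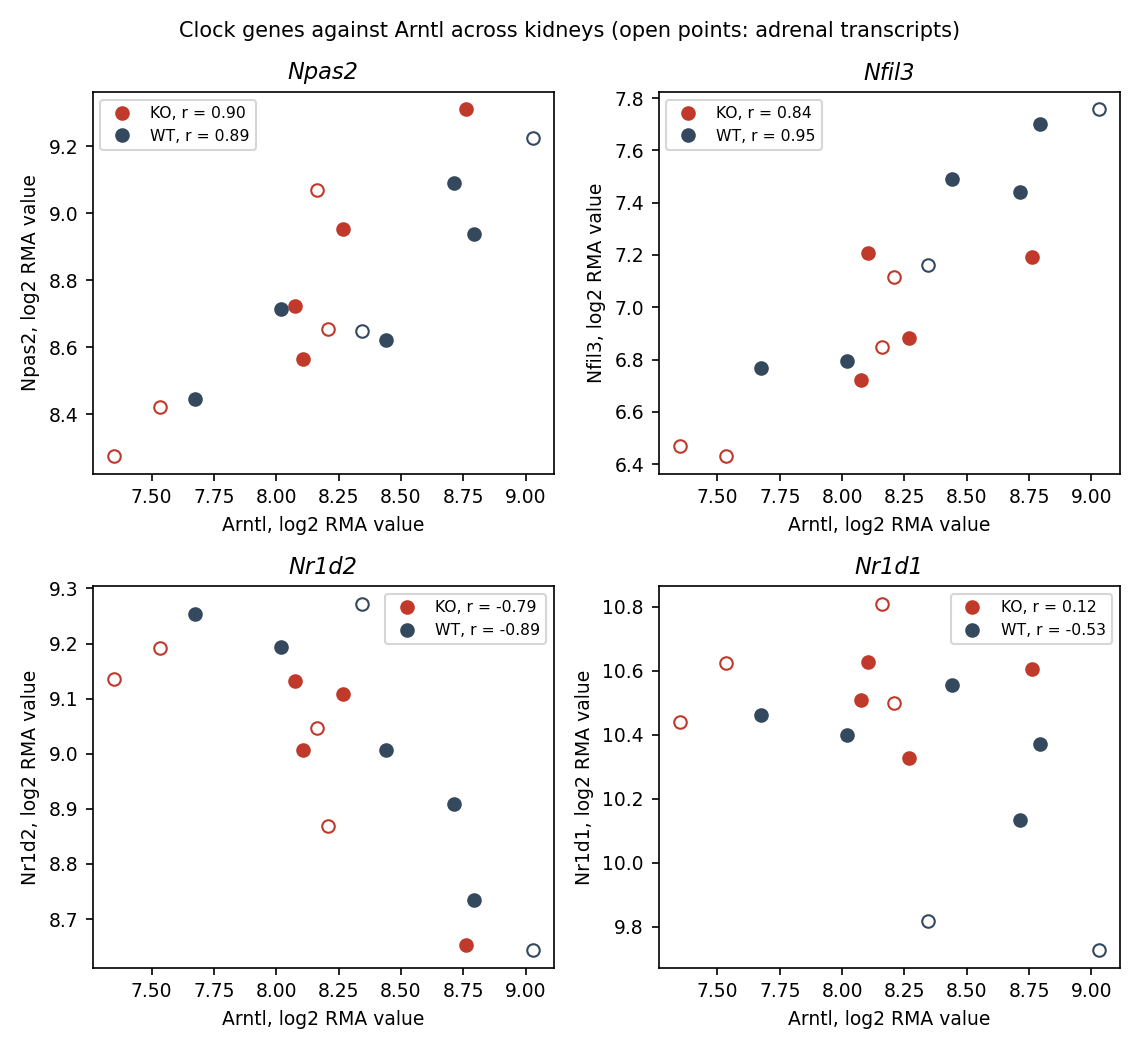
Log2 RMA values of Npas2, Nfil3, Nr1d2 and Nr1d1 against Arntl in the 8 KO and 7 WT kidneys, with Pearson's r per genotype in the legends and open points for samples with adrenal transcripts. Npas2 and Nfil3 climb with Arntl in both genotypes (r from 0.84 to 0.95), Nr1d2 declines (r = -0.79 in KO and -0.89 in WT), and Nr1d1 has r = 0.12 in KO and -0.53 in WT.

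All 22179 other genes were also ranked by their r with Arntl, on deviations from the genotype means over the 15 kidneys. This ranking is a description without a test, and all points share their arrays. Nfil3 ranked 3 from the top (r = 0.90), Npas2 4 (0.89) and Clock 76 (0.69), while Nr1d2 ranked 6 from the bottom (-0.84) and Cry2 100 (-0.72). The other members lay within the ranking, Cry1 at 5571 from the top (0.23), and Bhlhe41 at 2720 (-0.40) and Nr1d1 at 4562 (-0.30) from the bottom. Outside the 9 members, the 8 genes with the highest r were Rhobtb1 (0.93), Setbp1 (0.92), Lonrf3 (0.88), Ypel2 (0.86), Alcam (0.82), Unk (0.82), Hcfc1 (0.81) and Cadm3 (0.81). The 8 with the lowest were Dbp (-0.94), Tha1 (-0.88), Per3 (-0.88), Card10 (-0.85), Ciart (-0.84), Gjb2 (-0.83), Csrnp2 (-0.83) and Atxn1 (-0.82). Dbp, a PAR-bZIP activator, therefore had the lowest r of all genes, and Dbp, Per3 and Ciart belong to the list of E-box and D-box driven clock genes. Of the 10 measured genes of that list 8 had a negative r, among them Wee1 at -0.18, while Bhlhe40 (0.35) and Per1 (0.21) had a positive one.

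A reading per kidney was formed from genes known to peak at opposite times of day, although in these kidneys neither Cry1 nor Nr1d1 passed against Arntl and Nr1d1 did not move with Nr1d2. The Bmal1-phase level is the mean deviation of Arntl, Clock, Npas2, Cry1 and Nfil3 from their means over the 15 arrays, and the Nr1d1-phase level is that of Nr1d1 and Nr1d2. The 2 levels lay on opposite sides of 0 in 12 of 15 kidneys, 6 of them KO and 6 WT. The Bmal1-phase level averaged -0.12 ± 0.20 in KO and 0.13 ± 0.27 in WT kidneys (SD), and the Nr1d1-phase level 0.08 ± 0.10 in KO and -0.10 ± 0.23 in WT kidneys. The gap in the Nr1d1-phase level came from Nr1d1 (0.35), with Nr1d2 at 0.02.

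Their difference, Bmal1-phase minus Nr1d1-phase, ran from -0.55 through a median of -0.27 to 0.30 in KO kidneys, against -0.44, 0.32 and 1.03 in WT kidneys. Ordered from the highest, it placed WT 3 (1.03), WT 1 (0.45), WT 7 (0.43) and WT 2 (0.32) first, then KO 14 (0.30) and WT 6 (0.02). KO 13 (-0.01), KO 8 (-0.01), WT 4 (-0.21), KO 15 (-0.26), KO 10 (-0.28) and KO 9 (-0.29) followed, and WT 5 (-0.44), KO 12 (-0.50) and KO 11 (-0.55) came last. It was above 0 in 1 of 8 KO and 5 of 7 WT kidneys, and in 2 of 8 KO and 4 of 7 WT kidneys both with Bhlhe41 added to the Nr1d1-phase genes and with each gene scaled to the same SD. The means were -0.20 ± 0.28 in KO and 0.23 ± 0.49 in WT (SD), and their difference of -0.43 became -0.12 without the samples with adrenal transcripts and -0.22 without those with liver transcripts. With Bhlhe41 added it was -0.34, and -0.044 without the samples with adrenal transcripts. These values are given without a test, because the genes were chosen with earlier results of the same data known.

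**Figure D4:**
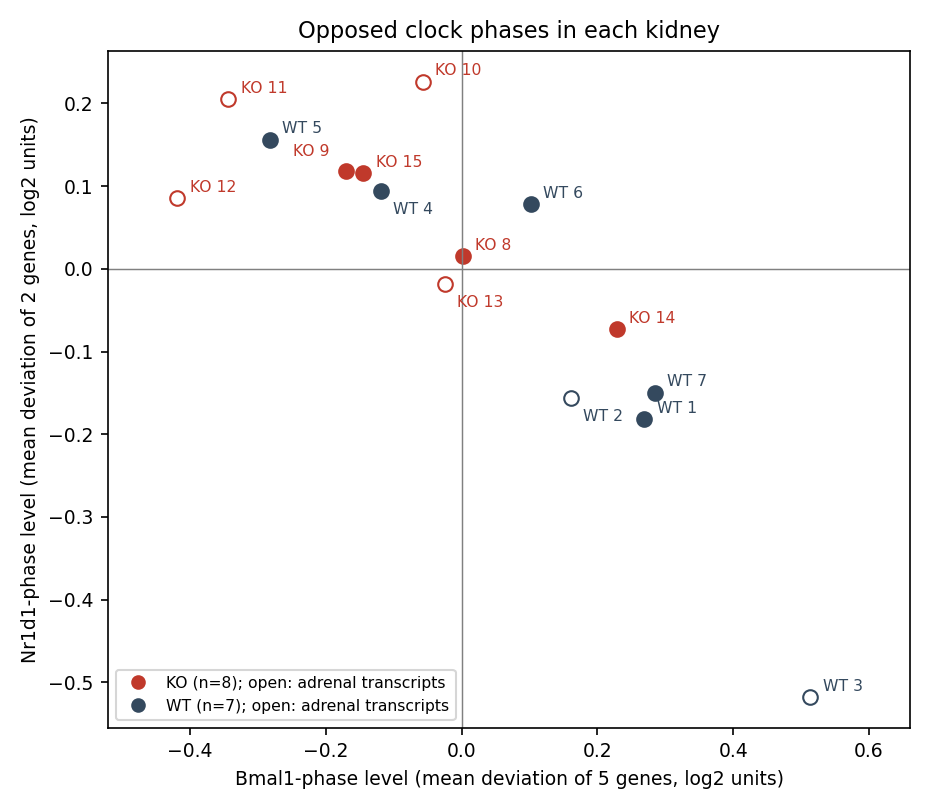
Nr1d1-phase level against Bmal1-phase level of each kidney, both as mean deviations in log2 units, with KO and WT replicates labelled and open points for samples with adrenal transcripts. WT 3 lies farthest toward high Bmal1-phase and low Nr1d1-phase levels (0.51 and -0.52), while WT 4 and WT 5 lie among the KO kidneys and KO 14 among the WT kidneys.

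The E-box and D-box list gives a further reading that uses none of the 9 members, though not all of its genes ran against Arntl (above). Its mean, over 10 measured genes of 11, deviated from the overall mean by -0.48 to 0.25 in KO kidneys, against -0.20 to 0.29 in WT kidneys. It was lowest in KO 14 (-0.48), where Arntl was the highest of the KO kidneys, and high in KO 11 (0.25), KO 12 (0.22) and WT 5 (0.21), the 3 kidneys with the lowest Arntl. Several kidneys did not follow this order. WT 2 had the highest list mean (0.29) with a Bmal1-phase level above 0 (0.16), and KO 13 had the second lowest list mean (-0.22) with a Bmal1-phase level just below 0 (-0.03). KO 10 and KO 15 lay below 0 on both, and WT 3, with the highest Bmal1-phase level, had a list mean of only -0.07. The group means of the list were -0.03 ± 0.24 in KO and 0.04 ± 0.17 in WT kidneys (SD). With the list mean as a covariate, the differences were -0.49 for Arntl, -0.53 for Nfil3, -0.32 for Cry1 and 0.33 for Nr1d1 (limma adjusted p = 0.492, 0.295, 0.753 and 0.696). Without it they were -0.37, -0.44, -0.33 and 0.35 in the same order, so they grew for Arntl and Nfil3 and shrank slightly for Cry1 and Nr1d1. Since not all genes of the list ran against Arntl, its mean need not stand for phase. The time of collection was not given, so a shift of it between the groups was not tested.

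The wider pathway gave no call in limma after adjustment in either direction. Of the 10 measured E-box and D-box genes, 4 had positive and 6 negative differences (median -0.09). An unadjusted p under 0.05 was reached by 2 of the 10, Wee1 and Bhlhe40, beside 5.55% of all probe sets. The cell cycle kinase Wee1 was at 7.77 ± 0.20 in KO and 7.99 ± 0.15 in WT (SD, difference -0.22, limma adjusted p = 0.812). Bhlhe40, the paralogue of Bhlhe41, was at 9.79 ± 0.16 in KO and 9.97 ± 0.14 in WT (SD, difference -0.18, limma adjusted p = 0.851). Nampt, an enzyme of NAD synthesis, followed at -0.10 (adjusted p = 0.973). Dbp differed by 0.20, Per3 by -0.09 and Ciart by 0.06 (adjusted p = 0.997 each). The ROR receptors, which activate through the elements that the NR1D proteins occupy, had 2 of 3 genes measured, Rora at -0.06 and Rorb at 0.01 (adjusted p = 0.988 and 0.997).

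Among 13 measured genes of 16 that modify or degrade clock proteins, 6 differences were positive and 7 negative (median -0.0032). Btrc alone, 1 of the 13, had an unadjusted p under 0.05, beside 5.55% of all probe sets. Btrc, an F-box protein that recognises period proteins, averaged 9.89 ± 0.08 in KO and 9.76 ± 0.09 in WT kidneys (SD, difference 0.13, limma adjusted p = 0.766). The kinase gene Gsk3b differed by -0.09 and Fbxl21, an F-box partner of cryptochromes, by 0.18 (adjusted p = 0.910 and 0.933). Of 7 measured kidney genes of 8 known to follow the clock, 4 differences were positive and 3 negative (median 0.01). Here 2 of the 7 had an unadjusted p under 0.05, beside the same 5.55% of all probe sets. Tsc22d3, a glucocorticoid-induced gene, averaged 7.07 ± 0.25 in KO and 7.36 ± 0.22 in WT kidneys (SD, difference -0.30, limma adjusted p = 0.801). Slc9a3, the sodium-proton exchanger of the proximal tubule, averaged 10.53 ± 0.14 in KO and 10.39 ± 0.09 in WT kidneys (SD, difference 0.13, limma adjusted p = 0.894). The kinase gene Sgk1 differed by -0.27 (adjusted p = 0.937).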

How the data were processed

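Total RNA of 15 kidneys was hybridised to a 1-colour array after whole-transcript labelling of 500 ng with biotin, per the labels' protocols. The deposited log2 values, 1 per probe set, were made by the authors with RMA, per the submitters' processing notes, with software and version not given in the sources used here. RMA brings all arrays to 1 distribution and compresses dim probe sets, so differences of dim genes are understated. No scanner files were analysed here, and precision is limited by how many arrays there are. Array medians lay between 5.51 and 5.59, array correlations between 0.976 and 0.991, and no 2 arrays were identical.

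Groups came from the sample titles, and the series' design counts mice, so each array is 1 animal. Of 41345 probe sets, the 23521 with exactly 1 gene symbol were tested, 1814 had several and 16010 were unnamed. Symbols were updated by Entrez ID through RefSeq of GRCm38.p6 for 23328 of them. A gene is represented by its probe set with the highest mean. KO and WT were compared with limma 3.58.1 under R 4.3.3 (lmFit, eBayes without trend, no covariate, Benjamini-Hochberg over all probe sets, threshold 0.05) and checked on simulated data. The simulated probe sets varied independently, with planted differences of 0.5 to 1.5 log2 units, larger than that of any member. That check therefore does not show the power for the members. Differences of single genes were also tested by exact permutation, and relations by permutation (100000 resamples, exact within a genotype) in Python 3.11.15. Adrenal or liver transcripts were taken as high above 1 log2 unit over the sample median of the list mean, and Y-linked transcripts above the midpoint of the range. Members and lists were chosen with earlier results of these data known. Named beside the members were the 3 genes of each list with the smallest p and the 8 genes at each end of the ranking by r with Arntl. The 12 promoter windows cover all 9 members.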

Additional observations from a re-analysis of the deposited data

Results flagged for a closer look

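Clock held the 2 readings that stood far from the rest of their group. KO 14 read 10.67 among 8 KO kidneys and WT 3 read 10.71 among 7 WT kidneys, each with a gap to the next sample that exceeded Dixon's 95% limit. Of the 20 groups of values tested in this way, chance flags about 1. The same kidneys had the highest Arntl of their genotype, at 8.76 in KO 14 and 9.03 in WT 3. WT 3 held adrenal and liver transcripts, and KO 14 held neither.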

How the results depend on the processing

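No member passed the adjusted threshold under any alternative run, leave-one-out fits included. In limma 3 members had an unadjusted p under 0.05 in the fit of all samples, beside 5.55% of all probe sets. The number was 0 without the samples with adrenal transcripts (4.03% of all probe sets). It was also 0 without those with adrenal or liver transcripts (3.87%), a set chosen after seeing the data. It was 1 without the samples with liver transcripts (5.45%) and 1 within the samples without Y-linked transcripts (7.29%). With 1 sample left out, limma gave 3 to 4 (4.83% to 6.47%). It was 3 with the adrenal cortex mean as covariate (5.68%), a fit added after seeing the data that uses a common slope for both genotypes. The smaller sets have less power, so a lower count there is not a like comparison. Cry1, Nfil3, Nr1d1 and Bhlhe41 kept their sign in every alternative run. Arntl turned only without the samples with adrenal or liver transcripts (0.0906). Clock turned within the samples without Y-linked transcripts (0.0111), without those with adrenal transcripts (0.0021) and without those with either organ (0.0011), and Npas2 in the same sets (0.0644, 0.127 and 0.171). Nr1d2 turned with array weights (-0.011), within the samples without Y-linked transcripts (-0.0281), and without those with adrenal (-0.045), liver (-0.114) or either (-0.116). Cry2 turned with the clock list as covariate (0.0238) and within the samples with Y-linked transcripts (0.0066). Leaving out 1 sample gave -0.0418 to 0.0431 for Cry2, -0.145 to 0.004 for Npas2 and -0.0441 to 0.0678 for Nr1d2. The causes were not tested.

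Over all probe sets limma called 3. It called 0 of the 11760 above the median level (771 at an unadjusted p under 0.05), 14 with the Y-linked mean as covariate, 1 within the samples without Y-linked transcripts, 1 without the samples with adrenal or liver transcripts and 2 to 6 with 1 sample left out, the highest without KO 8. The exact rank-sum test called 0 (1152 at an unadjusted p under 0.05). Relations with Arntl past the threshold by Pearson's r numbered 5 over all samples, 3 within WT, 3 without the 2 farthest samples, 3 without and 1 with adrenal transcripts (the last over 6 samples), 4 within KO, 4 without the samples with liver transcripts and 6 within those with Y-linked transcripts. The group difference of the Bmal1-phase minus Nr1d1-phase level was -1.36 with each gene scaled to an SD of 1, in units of SD, and -0.34 with Bhlhe41 added. Without the samples with adrenal transcripts these values were -0.3 and -0.044. Averaging the probe sets of a gene changed nothing, since each member has 1, and the filter on level removed Cry1 and Bhlhe41. No paired analysis was possible because KO and WT samples share no replicate number.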
